A study of Mus musculus with 26 samples.

Results

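Globin, heme and erythroid genes were followed across leukaemic stem and progenitor cells of mice with and without Spred1. The 9 genes were chosen by symbol: the adult alpha-globins Hba-a1 and Hba-a2, the adult beta-globins Hbb-bs and Hbb-bt, the heme enzyme gene Alas2, the membrane gene Slc4a1, the transcription factor gene Klf1 and the carbonic anhydrase genes Car1 and Car2. Of these 9, 7 matched a row of the count table by symbol, and all 7 were among the 13379 genes tested of 24091 in the table. Hba-a1 was not matched by symbol, and the Hba-a2 row runs from the RefSeq start of Hba-a1 to the RefSeq end of Hba-a2 (mm10, chromosome 11, 32283672 to 32297310, plus strand), so it is read here as both alpha-globin genes together. Hbb-bt was not matched either. A row named Hbb-b2 lies at chromosome 7, 103812524 to 103813923, minus strand, which is where RefSeq places Hbb-bt in build GRCm38.p6; it is described under its own name as the globin row at the Hbb-bt position and is not counted among the members.

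The libraries were made from LSK cells of C57BL/6 mice, the bone marrow fraction that is lineage-negative and positive for Sca-1 and c-Kit and holds stem and multipotent progenitor cells. All groups carried SCLtTA/BCR-ABL, in which an SCL-driven tetracycline transactivator switches on the BCR-ABL oncogene in blood stem and progenitor cells to model chronic myeloid leukaemia, so no group is free of leukaemia. Spred1, a membrane-bound inhibitor of RAS signalling, was deleted in all tissues (global KO, 6 libraries), with Mx1-cre (HSC KO, 5) or in endothelial cells (EC KO, 5), and was intact in Spred1 wt (5) and HSC wt (5). Both HSC groups received 7 doses of 250 µg of poly(I:C), 1 every 2 days, to switch on Mx1-cre, which also acts in other interferon-responsive cells. Whether the remaining groups received poly(I:C) and which Cre acted in endothelium are not given in the sources used here. The EC wt group, the control of EC KO, was not analysed here, and Spred1 wt was used in its place.

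Adult haemoglobin is a tetramer of alpha and beta chains, each holding a heme, and red cell precursors make both chains in near balance. Alas2 codes for the erythroid form of the first enzyme of heme synthesis, Slc4a1 for band 3, the anion exchanger of the red cell membrane, and Klf1 for the erythroid transcription factor that binds CACCC boxes of globin promoters. Carbonic anhydrases 1 and 2 turn carbon dioxide into bicarbonate, which band 3 carries across the membrane. LSK cells lie upstream of the erythroid lineage, and the lineage antibodies of the sort are not given in the sources used here.

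The rows of the 2 adult beta-globins rest on nearly identical transcripts, which the last part of the coding sequence shows. The coding sequences of Hbb-bs and Hbb-bt differed at 1 of 444 bases (99.8% identity), and those of Hba-a1 and Hba-a2 at 1 of 429 (99.8%). The stretches below are coding bases 384 to 444, 5′ to 3′, of the reference transcripts, and the capital marks the single base at which they differ.

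Hbb-bs: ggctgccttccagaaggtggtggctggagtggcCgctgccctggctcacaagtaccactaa
Hbb-bt: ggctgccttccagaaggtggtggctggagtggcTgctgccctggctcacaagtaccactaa

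A read that misses this base and the untranslated ends cannot be placed in 1 of the genes. The longest run shared by the transcripts was 430 bases for the beta pair and 415 bases for the alpha pair, and how the counting treated such reads is not given in the sources used here, so the split between Hbb-bs and the Hbb-b2 row is uncertain. The strand setting is not given either, and the rows of Hba-a2, Alas2, Slc4a1 and Klf1 overlap other rows of the table.

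The promoters do differ within the beta pair, and they are shown because the 2 beta-globin rows were seen to part in some libraries. RefSeq promoters (GRCm38.p6) were matched for 6 of the 9 genes, without Slc4a1, Car1 and Car2. The sequences are the 250 bases before the start of the gene, read 5′ to 3′ on its own strand. Capitals mark GATA-factor motifs (the words AGATAA and AGATAG, and the words TGATAA and TGATAG) and CACCC boxes (CACCC), searched on both strands. They lie at chr11:32283422-32283671 for Hba-a1 (plus strand), chr7:103827929-103828178 for Hbb-bs (minus strand), chr7:103813924-103814173 for Hbb-bt (minus strand) and chrX:150547167-150547416 for Alas2 (plus strand).

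Hba-a1: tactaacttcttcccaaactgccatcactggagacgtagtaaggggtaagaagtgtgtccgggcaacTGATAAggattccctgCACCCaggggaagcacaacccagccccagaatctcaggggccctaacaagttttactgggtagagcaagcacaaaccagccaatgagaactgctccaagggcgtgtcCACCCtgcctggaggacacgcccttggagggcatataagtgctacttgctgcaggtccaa
Hbb-bs: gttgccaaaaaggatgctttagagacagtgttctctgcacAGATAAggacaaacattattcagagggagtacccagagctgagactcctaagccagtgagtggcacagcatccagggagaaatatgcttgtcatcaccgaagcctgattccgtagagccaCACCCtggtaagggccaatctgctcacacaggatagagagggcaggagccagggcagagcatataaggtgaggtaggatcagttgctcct
Hbb-bt: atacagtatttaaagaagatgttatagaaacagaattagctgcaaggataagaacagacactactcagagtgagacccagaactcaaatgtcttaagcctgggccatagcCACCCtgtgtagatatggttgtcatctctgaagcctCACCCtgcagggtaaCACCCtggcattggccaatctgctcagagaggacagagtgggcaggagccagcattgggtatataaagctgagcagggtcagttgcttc
Alas2: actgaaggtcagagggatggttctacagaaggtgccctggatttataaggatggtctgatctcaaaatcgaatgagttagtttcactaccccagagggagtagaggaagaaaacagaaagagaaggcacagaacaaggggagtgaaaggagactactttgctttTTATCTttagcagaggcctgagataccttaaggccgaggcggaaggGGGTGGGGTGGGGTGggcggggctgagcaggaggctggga

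Hba-a1, Hbb-bs and Alas2 each held 1 GATA motif, and Hbb-bt held 0 of these letters in this window. The CACCC box occurred 2 times in Hba-a1, 1 time in Hbb-bs, 3 times in Hbb-bt and 3 times in Alas2, where the copies lie end to end. Hba-a2 shared a run of 247 bases with Hba-a1 and had the same motif counts, and Klf1 held 1 of each. Among 32851 promoter windows of this length, 26.5% held a GATA motif, 52.0% a CACCC box and 11.8% both, so either motif alone is common. These matches describe letters, not binding.

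Total counts per library ranged from 14816071 to 26714325. Spred1, given here as CPM, the counts scaled to a common library size after TMM normalization, lay between 22.4 and 44.5 in global KO and between 28.8 and 47.4 in HSC KO, against 92.4 to 148 in Spred1 wt and 96.9 to 109 in HSC wt. In EC KO it lay between 58.0 and 84.0, below all Spred1 wt libraries. All 10 LSK and stem cell markers, Kit, Ly6a and Cd34 among them, had counts in all 26 libraries, so their detection does not set the 3 libraries with the most globin apart. Xist, the transcript of the inactive X chromosome of females, was above 500 CPM in 7 libraries, namely 3 of HSC KO, 2 of HSC wt and 2 of EC KO, and in 0 of the 11 global KO and Spred1 wt libraries. The labels do not tie each global KO or Spred1 wt library to its own mouse, and p-values measure the spread between libraries. In bulk RNA, fewer cells of a type and less RNA per cell cannot be told apart.

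Among the members, Hbb-bs, Hba-a2, Alas2 and Slc4a1 were scarce in nearly all libraries and higher in a few. Hbb-bs (chromosome 7, 103826523 to 103827929, minus strand) was the more abundant of the 2 beta-globin rows in HSC KO 1, EC KO 3 and EC KO 5. With fewer counts, it also was in global KO 1 (170 against 73 counts) and EC KO 4 (94 against 91). The same held for the controls Spred1 wt 1 (140 against 89) and Spred1 wt 3 (127 against 113). Its median over the 26 libraries was 2.72 CPM, below the 5.78 CPM of the Hbb-b2 row, and it reached 194 CPM in 1 of them. HSC KO 1 alone held 61.1% of the summed Hbb-bs CPM, and HSC KO 1, EC KO 5 and EC KO 3 together held 79.7%. For Hba-a2 the 3 libraries held 76.2% and for Alas2 76.9%. The sum was spread more widely for Klf1, whose 3 highest libraries held 33.4%, for Car1 (36.7%) and for Car2 (19.8%).

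In the Spred1 wt libraries Hbb-bs stood at 8.98, 2.71, 7.00, 0.779 and 2.73 CPM, and in HSC wt at 2.46, 0.779, 0.371, 3.91 and 3.01 CPM. Global KO ran from 0.833 through a median of 3.46 to 8.83 CPM. HSC KO stood at 194, 2.63, 0.746, 0.898 and 0.111 CPM, and EC KO stood at 0.126, 0.235, 23.6, 5.04 and 35.2 CPM. Global KO stayed within the range of its control. HSC KO held both the highest and the lowest library of all 26, and EC KO held 2 libraries above and 2 below every Spred1 wt library. By medians the order was EC KO (5.04), global KO (3.46), Spred1 wt (2.73), HSC wt (2.46) and HSC KO (0.898), and the ranges of all neighbours in that order overlapped. By means HSC KO came first, at 39.6 ± 86.1 CPM (SD, n = 5), and without HSC KO 1 it came last, at 1.10 ± 1.08 (n = 4) beside 2.11 ± 1.498 (n = 5) in HSC wt.

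The alpha-globin row Hba-a2 followed the same libraries. It stood at 2.37, 1.14, 2.48, 0.260 and 1.04 CPM in Spred1 wt and at 1.28, 0.360, 0.325, 1.59 and 1.17 CPM in HSC wt. In global KO it ran from 0.333 through 1.19 to 2.598 CPM. The HSC KO libraries held 54.8, 0.658, 0.373, 0.513 and 0 CPM, and EC KO stood at 0.0837, 0, 6.03, 1.72 and 13.7 CPM. HSC KO 1, EC KO 5 and EC KO 3 were again the highest 3, and all other libraries overlapped. A count of 0 allows up to 3 counts, which is 0.167 CPM in HSC KO 5 and 0.141 CPM in EC KO 2; this and the intervals given further on cover counting error only.

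Hba-a2 was set against Hbb-bs as a share of their counts, leaving out the Hbb-b2 row. In the 16 libraries with at least 50 counts in the 2 rows together, Hba-a2 made up 20% to 34.2% of the sum of Hba-a2 and Hbb-bs counts, with a median of 26.9%. The share was 22.1% (95% Wilson interval 20.9 to 23.3%) in HSC KO 1, 20.4% (17.4 to 23.7%) in EC KO 3 and 28.0% (25.5 to 30.6%) in EC KO 5, and 20.9% (15.6 to 27.5%) in Spred1 wt 1. The highest share, 34.2%, was in HSC wt 1 and the lowest, 20%, in HSC KO 2, both with few globin counts. The embryonic rows Hba-x and Hbb-bh2 had 0 counts in HSC KO 1, EC KO 3 and EC KO 5, as did Hbb-y and Hbb-bh1.

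The Hbb-b2 row at the Hbb-bt position had another pattern. It stood at 5.71, 3.80, 6.23, 5.84 and 4.81 CPM in Spred1 wt and at 4.11, 5.58, 4.59, 4.34 and 5.20 CPM in HSC wt. Global KO ran from 3.79 through 6.45 to 9.28 CPM. Values in HSC KO were 41.0, 9.41, 5.06, 8.85 and 6.63 CPM, and EC KO stood at 22.2, 12.7, 8.61, 4.88 and 14.4 CPM. In 4 of 5 HSC KO and in 4 of 5 EC KO libraries the row lay above all 5 controls of the comparison. In global KO 3 of 6 libraries lay above all controls and 1 lay below them. EC KO 1 and EC KO 2, with 22.2 and 12.7 CPM, were among the highest libraries for this row while holding 0.126 and 0.235 CPM of Hbb-bs.

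As a share of the counts of both beta rows, Hbb-b2 made up 99.4% (95% Wilson interval 98.4 to 99.8%) in EC KO 1 and 98.2% (95.8 to 99.2%) in EC KO 2. It made up 17.5% (16.3 to 18.7%) in HSC KO 1, 26.7% (23.5 to 30.2%) in EC KO 3 and 29.0% (26.5 to 31.7%) in EC KO 5. The share ranged from 38.9% to 88.2% over Spred1 wt and from 52.6% to 92.5% over HSC wt. EC KO 1 and EC KO 2 are the EC KO libraries with Xist above 500 CPM, at 2713 and 2225 CPM. EC KO 3, 4 and 5 lay at or under 0.630 CPM of Xist. Outside EC KO the shares of Xist-high libraries ranged widely. They were 17.5% in HSC KO 1, which had the highest Xist at 4533 CPM, 90.8% in HSC KO 4 and 98.3% in HSC KO 5. HSC wt 4 and HSC wt 5, also Xist-high, had 52.6% and 63.3%. HSC wt 3, at 0.325 CPM of Xist, had 92.5%. The part of Xist in this split was not tested.

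**Figure D1:**
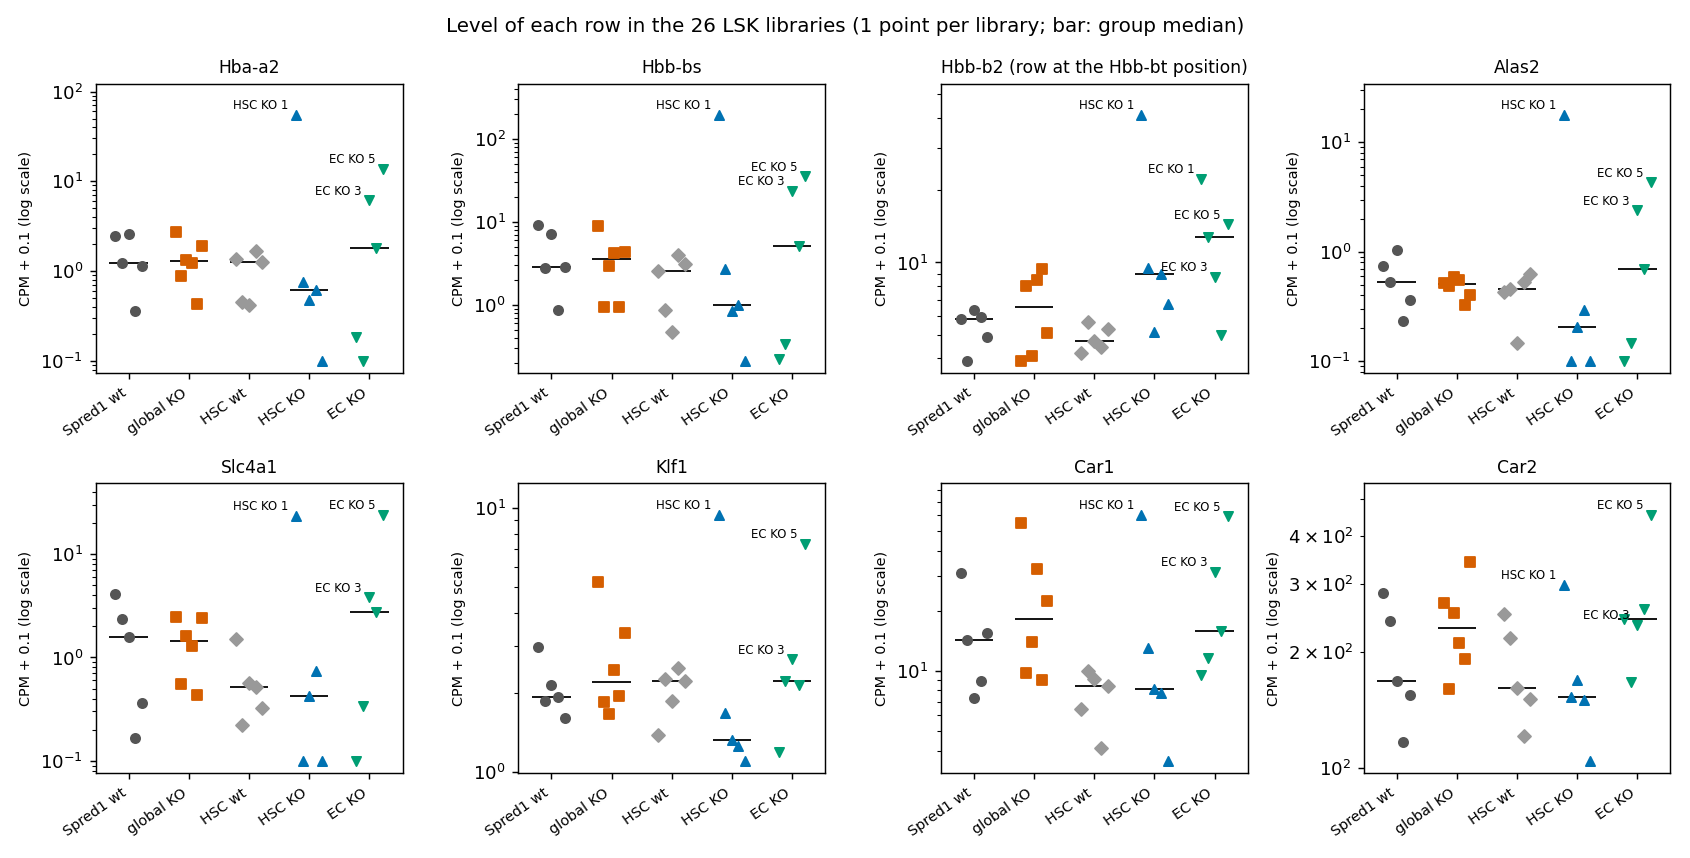
Level of the 7 member rows and the Hbb-b2 row in each of the 26 libraries, by group, as CPM + 0.1 on log axes (points are libraries, bars group medians). HSC KO 1 stood at 194 CPM and EC KO 5 at 35.2 CPM of Hbb-bs while the median of all libraries was 2.72 CPM, and the Car2 panel spans only 104 to 455 CPM.

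Alas2, on chromosome X (150547417 to 150570622, plus strand), had the lowest median over the 26 libraries after Slc4a1 when levels were set per kilobase of the lengths in the table. It stood at 0.641, 0.427, 0.937, 0.130 and 0.260 CPM in Spred1 wt and at 0.331, 0.360, 0.0464, 0.423 and 0.527 CPM in HSC wt. Global KO ran from 0.222 through 0.402 to 0.484 CPM. HSC KO gave 17.7, 0, 0.107, 0.192 and 0 CPM, and EC KO stood at 0, 0.0471, 2.29, 0.590 and 4.20 CPM. Outside HSC KO 1, EC KO 3 and EC KO 5, no library passed 0.937 CPM. Without HSC KO 1 the HSC KO mean was 0.0748 ± 0.0932 CPM (SD, n = 4), below the 0.337 ± 0.179 (n = 5) of HSC wt. Beside Hbb-bs, Alas2 made up 8.39% of the 2 rows' counts in HSC KO 1, 8.83% in EC KO 3 and 10.7% in EC KO 5.

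Slc4a1 (chromosome 11, 102348820 to 102365281, minus strand) was high in 2 libraries rather than 3. It stood at 4.04, 2.28, 1.49, 0.0649 and 0.260 CPM in Spred1 wt and at 1.42, 0.1199, 0.464, 0.423 and 0.226 CPM in HSC wt. Global KO ran from 0.333 through 1.35 to 2.39 CPM. In HSC KO the level was 23.4, 0, 0.320, 0.642 and 0 CPM, and EC KO stood at 0, 0.235, 3.75, 2.63 and 24.03 CPM. HSC KO 1 and EC KO 5 lay close together, while EC KO 3 with 3.75 CPM stayed under Spred1 wt 1. Set beside Hbb-bs, band 3 transcripts made up 10.8% (95% Wilson interval 9.85 to 11.8%) of the 2 rows' counts in HSC KO 1, 13.7% (11.1 to 16.8%) in EC KO 3 and 40.6% (38.1 to 43.2%) in EC KO 5. In the 14 libraries with at least 50 counts this share ran from 6.98% to 45.7%, so the membrane gene and the globin did not keep 1 ratio.

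Klf1 (chromosome 8, 84901928 to 84905295, plus strand) was detected in all 26 libraries and varied less. It stood at 2.89, 1.76, 2.04, 1.82 and 1.496 CPM in Spred1 wt and at 1.28, 2.16, 1.76, 2.38 and 2.11 CPM in HSC wt. Global KO ran from 1.56 through 2.08 to 5.14 CPM. HSC KO had 9.33, 1.58, 1.23, 1.15 and 1.003 CPM, and EC KO stood at 1.09, 2.12, 2.58, 2.04 and 7.23 CPM. HSC KO 1, EC KO 5 and global KO 1 were the highest 3. In HSC KO, 1 library lay above and 3 lay below every HSC wt library.

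Car1 (chromosome 3, 14766214 to 14808365, minus strand) had 3 libraries of nearly the same height, HSC KO 1 at 60.4, EC KO 5 at 59.4 and global KO 1 at 55.1 CPM. Global KO 1 held 8.83 CPM of Hbb-bs and 0.416 CPM of Alas2, so there Car1 was high and Alas2 inside the range of the controls. It stood at 31.0, 14.2, 7.22, 8.83 and 15.3 CPM in Spred1 wt, and at 6.33, 9.95, 9.003, 4.02 and 8.32 CPM in HSC wt. Global KO had a median of 18.1 and a low of 8.95 CPM. The other HSC KO libraries stood at 12.9, 8.04, 7.63 and 3.46 CPM, and the other EC KO libraries at 9.41, 11.5, 31.3 and 15.8 CPM.

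Car2 (chromosome 3, 14886426 to 14900770, plus strand) was the most abundant member by far and varied least. Per kilobase, its median over the 26 libraries was 113 CPM, against 8.64 for Car1, 4.27 for Hbb-bs, 1.26 for Klf1, 1.01 for Hba-a2, 0.190 for Alas2 and 0.122 for Slc4a1. It stood at 285, 241, 169, 117 and 154 CPM in Spred1 wt and at 251, 217, 161, 121 and 151 CPM in HSC wt. Global KO ran from 161 through 231 to 342 CPM. HSC KO libraries stood at 299, 152, 169, 150 and 104 CPM, and EC KO stood at 243, 167, 235, 259 and 455 CPM. The groups overlapped throughout, with EC KO 5 above and HSC KO 5 below all other libraries. Car1 made up 16.8% of the counts of both genes in HSC KO 1 and 17.1% in global KO 1, against a median of 5.62% over the 26 libraries.

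Loss of Spred1 in all tissues was read from global KO set against Spred1 wt. None of the 7 members changed past the threshold (0 of 7 at an adjusted p under 0.05 by edgeR's quasi-likelihood test with Benjamini-Hochberg adjustment over all genes), where 0.0747% of all genes tested were called. An unadjusted p under 0.05 was found for 0 of 7, beside 5.53% of all genes. The log2 differences were -0.28 for Hbb-bs (SE 1.36, edgeR adjusted p = 0.999), -0.15 for Hba-a2 and -0.35 for Alas2, all smaller than their standard errors. Car1 had the largest, at 0.63 (SE 0.65, edgeR adjusted p = 0.990), with 2 of 6 global KO libraries above all controls. The median over the 7 members was -0.15, beside 0.01 over all genes. DESeq2 and limma voom also called 0 of 7 here and in the other comparisons that follow.

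In HSC KO against HSC wt Hbb-bs, Hba-a2, Alas2 and Slc4a1 had log2 differences above 3, and none passed the threshold. By edgeR's quasi-likelihood test with Benjamini-Hochberg adjustment, 0 of 7 members were called, with 0.0224% of all genes called. The log2 difference was 4.22 for Hbb-bs (SE 1.52), 3.56 for Hba-a2 (SE 1.39), 3.39 for Alas2 (SE 1.31) and 3.18 for Slc4a1 (SE 1.47), each with an edgeR adjusted p of 0.999. These 4 had unadjusted p-values under 0.05 (0.0112, 0.0178, 0.0166 and 0.0420), as had 2.16% of all genes. Only 1 of 5 HSC KO libraries lay above all controls for each of the 4, and it was HSC KO 1. Without that library the log2 differences were -0.97 for Hbb-bs, -1.31 for Hba-a2, -2.10 for Alas2 and -1.14 for Slc4a1, so the direction turned.

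Of the other members in HSC KO, Car1 differed by 1.30 (SE 0.69), Klf1 by 0.56 (SE 0.54) and Car2 by -0.04 (SE 0.29) on the log2 scale. Klf1 turned to -0.64 without HSC KO 1, and Car1 fell to 0.08. The Hbb-b2 row differed by 1.57 (SE 0.45), with an unadjusted p of 0.00199 and an edgeR adjusted p of 0.999, and its difference without HSC KO 1 was 0.65. The median over the 7 members was 3.18, beside 0.02 over all genes, and it rests on the same library.

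EC KO against Spred1 wt, the comparison in which 7.96% of all genes were called, again gave 0 of 7 members by edgeR's quasi-likelihood test with Benjamini-Hochberg adjustment, and 0 of 7 had an unadjusted p under 0.05, beside 25.1% of all genes. All 7 log2 differences were positive: 1.91 for Slc4a1 (SE 1.35), 1.55 for Hba-a2 (SE 1.32), 1.55 for Alas2 (SE 1.28), 1.53 for Hbb-bs (SE 1.38), 0.74 for Car1, 0.59 for Klf1 and 0.49 for Car2 (SE 0.29). Their edgeR adjusted p-values ran from 0.303 for Car2 to 0.520 for Car1. The median was 1.53, beside 0.02 over all genes. With EC KO 3 and EC KO 5 left out together with HSC KO 1, a choice made after seeing the data, the differences were -1.37 for Hbb-bs, -1.37 for Hba-a2, -1.29 for Alas2, -0.85 for Slc4a1, -0.22 for Klf1 and -0.35 for Car1. Without EC KO 5 alone, Slc4a1 stood at -0.02 and Klf1 at -0.05.

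Among libraries under 500 CPM of Xist, an alternative also chosen after seeing the data, 3 EC KO libraries were set against the 5 Spred1 wt libraries. There 2 of 7 members rose past the threshold, with 5.88% of all 13733 genes called: Alas2 by 2.27 (SE 0.58, edgeR adjusted p = 0.0280) and Hba-a2 by 2.27 (SE 0.66, edgeR adjusted p = 0.0498), with 2 of these 3 libraries above all controls. Hbb-bs differed by 2.25 (SE 0.80, edgeR adjusted p = 0.107) and Slc4a1 by 2.61 (SE 0.92, edgeR adjusted p = 0.103). With all libraries kept and the Xist class as a term of the fit, the differences were 1.51 for Alas2 and 1.53 for Hba-a2, and 0 of 7 passed, beside 4.75% of all genes. The Xist-high libraries of EC KO had no Spred1 wt counterpart. Among the HSC libraries under 500 CPM of Xist, 2 against 3, Hbb-bs differed by 0.42 and Alas2 by -1.95, and edgeR called 0 of 7 members and 0 of all 13733 genes.

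The Hbb-b2 row came closest to a call in EC KO. Its log2 difference was 1.25 (SE 0.45, edgeR adjusted p = 0.0833), which is a 2.38-fold difference, with 4 of 5 libraries above all controls. DESeq2 gave 1.24 and an adjusted p of 0.0386, and edgeR gave 1.40 and an adjusted p of 0.0455 with HSC wt as the control, and 1.31 with an adjusted p of 0.0278 without the 3 libraries rich in globin. Among libraries under 500 CPM of Xist the difference was 0.81 (edgeR adjusted p = 0.161), and with the Xist class as a term it was 0.87 (edgeR adjusted p = 0.257). Leaving out 1 library at a time gave edgeR adjusted p-values from 0.0613 to 0.205.

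The controls HSC wt, given poly(I:C), and Spred1 wt, for which poly(I:C) is not stated, had 0 of 7 members past the threshold by edgeR's quasi-likelihood test with Benjamini-Hochberg adjustment, where 0.0299% of all genes were called, and 0 of 7 at an unadjusted p under 0.05, beside 6.35% of all genes. All 7 differences were negative, from -0.05 for Klf1 (SE 0.54) to -1.60 for Slc4a1 (SE 1.48), with Hbb-bs at -1.06 (SE 1.46) and Car1 at -1.02 (SE 0.69). The difference between the global KO and the HSC KO effects was -4.50 for Hbb-bs (SE 1.99, unadjusted p = 0.0338, edgeR adjusted p = 0.9998) and turned to 0.69 without HSC KO 1. It was past the threshold for 0 of 7 members, with 0.0149% of all genes called, and 1 of 7 members had an unadjusted p under 0.05, beside 2.14% of all genes. Global KO and EC KO share the Spred1 wt controls, so their values are set side by side and not correlated.

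**Figure D2:**
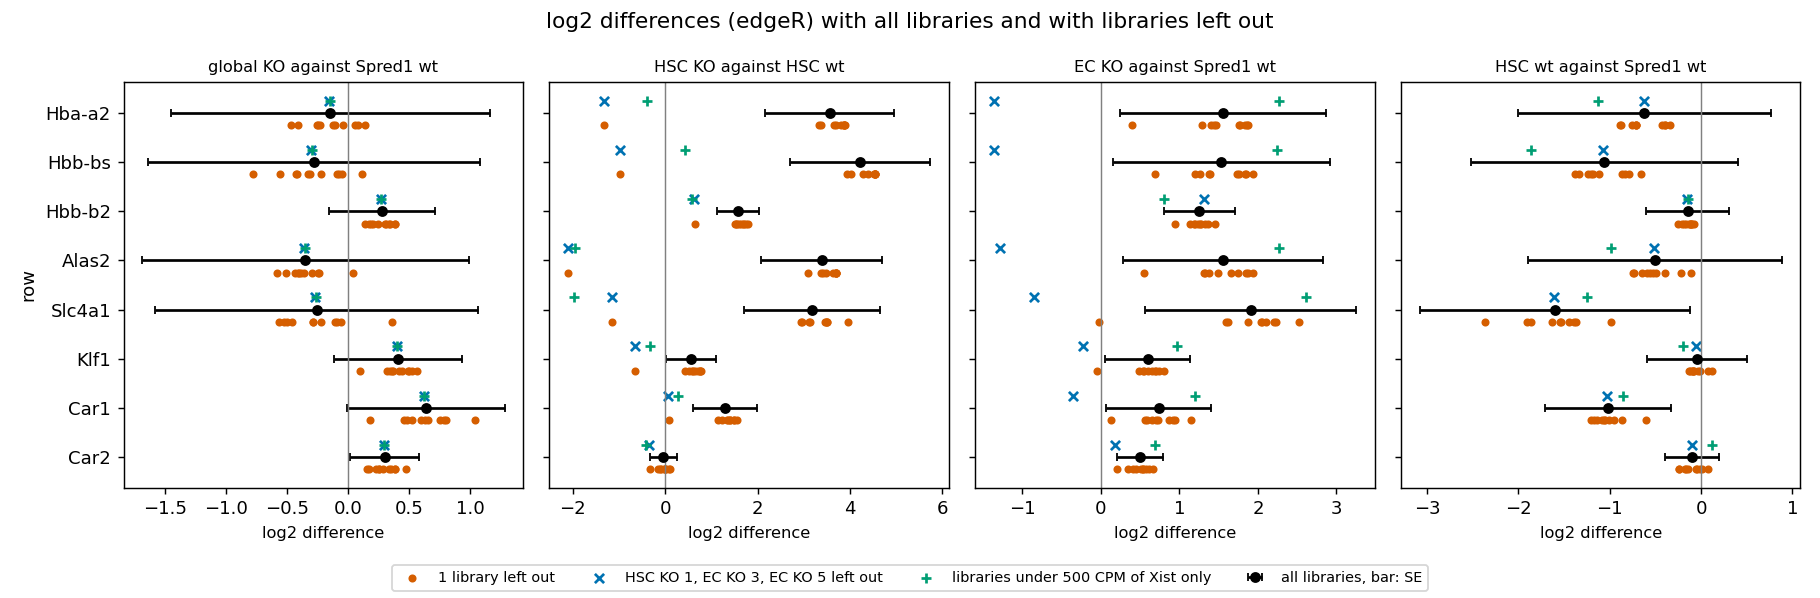
log2 differences of 8 rows in 4 comparisons: black points and bars are the edgeR estimate and its SE from all libraries, orange points are the estimates with 1 library left out in turn, blue crosses those without HSC KO 1, EC KO 3 and EC KO 5, and green plus signs those among libraries under 500 CPM of Xist. In HSC KO the Hbb-bs estimate moved from 4.22 to -0.97 when HSC KO 1 was left out.

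Across the 26 libraries the members rose and fell together to different degrees. On the log2 CPM scale Hbb-bs correlated with Hba-a2 at r = 0.98 (Spearman's rho 0.97), with Alas2 at 0.91 (0.88), with Slc4a1 at 0.86 (0.82) and with Klf1 at 0.82 (0.73). The correlation was 0.75 (0.64) with Car1 and 0.60 (0.57) with Car2. Among 14 relations computed with Hbb-bs, the permutation p of r was 1e-05, the smallest that 100000 permutations can give, for Hba-a2, Alas2, Slc4a1, Klf1 and Car1 (adjusted p 2.8e-05), and 0.00131 for Car2 (adjusted p 0.00262). For rho the permutation p was 1e-05 for Hba-a2, Alas2 and Slc4a1 (adjusted p 4.667e-05), 4e-05 for Klf1 (adjusted p 0.00014), 0.00063 for Car1 (adjusted p 0.00147) and 0.00275 for Car2 (adjusted p 0.004278).

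Without HSC KO 5 and HSC KO 1, the libraries farthest from the median of Hbb-bs, r was 0.97 for Hba-a2, 0.85 for Alas2, 0.80 for Slc4a1, 0.70 for Klf1, 0.64 for Car1 and 0.51 for Car2. Among the 19 libraries under 500 CPM of Xist it was 0.96, 0.81, 0.80, 0.70, 0.77 and 0.68 in the same order, and among the 7 above it was 0.99, 0.99, 0.94, 0.93, 0.73 and 0.50. The Hbb-b2 row correlated with Hbb-bs at r = 0.23 (permutation p = 0.254, adjusted p 0.296) and rho = -0.05 (permutation p = 0.789, adjusted p 0.789). Without the farthest 2 libraries its r was -0.21. Without HSC KO 1, EC KO 3 and EC KO 5 (23 libraries) its r was -0.56, while r was 0.96 for Hba-a2, 0.79 for Alas2, 0.74 for Slc4a1, 0.64 for Klf1, 0.56 for Car1 and 0.45 for Car2.

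**Figure D3:**
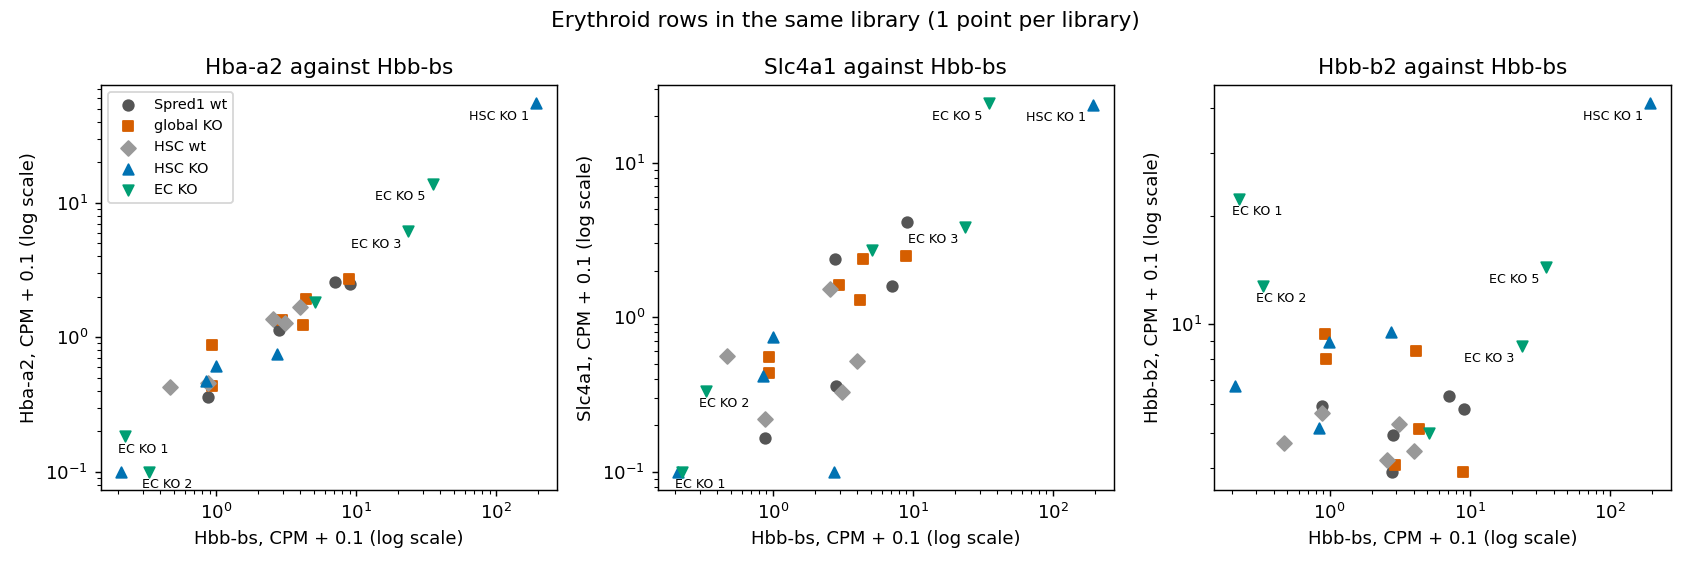
Hba-a2, Slc4a1 and the Hbb-b2 row against Hbb-bs, 1 point per library, as CPM + 0.1 on log axes. Hba-a2 follows Hbb-bs along 1 line (r = 0.98), Slc4a1 is higher in EC KO 5 and HSC KO 1 alike at 24.03 and 23.4 CPM, and the Hbb-b2 row is high in EC KO 1 at 22.2 CPM where Hbb-bs is near 0.

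The membrane and skeleton genes of the red cell followed HSC KO 1 and EC KO 5. Of 18 tested genes of this list, Slc4a1 included, 15 lay above all 10 control libraries in HSC KO 1 and 13 in EC KO 5. Of all genes tested, 13.6% and 17.9% did so. In EC KO 3 it was 0 of the 18, where 22.3% of all genes did. These libraries were singled out for their globin levels after the data were seen, so the counts describe them and are no independent support. Ank1, the ankyrin that ties band 3 to the membrane skeleton, stood at 21.6 CPM in HSC KO 1, 18.1 CPM in EC KO 5 and 3.70 CPM in EC KO 3. Aqp1, a water channel, stood at 46.3, 39.7 and 15.1 CPM in the same libraries. EC KO 3 thus held globin and Alas2 above all controls and none of the 18 membrane genes above them. Ank1, and Epor and Gata1 further on, were chosen for naming after their values were seen.

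The most abundant members of that list differed less. Epb41 (protein 4.1), Gypc (glycophorin C) and Xk had means of 210.5, 61.2 and 26.4 CPM over all libraries. In HSC KO 1, Epb41 stood at 237 CPM and Xk at 34.2 CPM, just above the highest controls at 231 and 31.0 CPM, and Gypc stood within the control range. Gypc differed by 0.01 in HSC KO and by 0.01 in EC KO on the log2 scale. In EC KO, where 7.96% of all genes were called, 1 of 18 genes was called, and it fell: Epb41, from 215 ± 13.5 CPM in Spred1 wt to 179 ± 9.70 CPM in EC KO (SD, n = 5 each; log2 difference -0.26, edgeR adjusted p = 0.00256). The other 4 comparisons gave 0 of 18. The median log2 difference of the 18 genes was 1.21 in HSC KO and 0.58 in EC KO, beside 0.02 over all genes in each.

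The other genes of heme synthesis and iron supply varied less between libraries than Alas2. Alas1, the housekeeping form of the same first enzyme, stood at 167 CPM in HSC KO 1, 211 in EC KO 3 and 176 in EC KO 5, inside the control range of 115 to 224 CPM. Of the 19 genes of heme synthesis and iron supply, Alas2 included, 6, 5 and 5 lay above all controls in HSC KO 1, EC KO 3 and EC KO 5. Of all genes, 13.6%, 22.3% and 17.9% did so. The list's other most abundant genes were the ferritins Fth1 and Ftl1 and the transferrin receptor Tfrc, with mean levels of 638, 623 and 254 CPM. In EC KO they differed by -0.01, -0.15 and 0.26 on the log2 scale. 0 of 19 genes were called in any of the 5 comparisons by edgeR's quasi-likelihood test with Benjamini-Hochberg adjustment, with at most 4 at an unadjusted p under 0.05, in EC KO, where 25.1% of all genes had one.

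A list of 12 genes held erythroid transcription factors, Klf1 included, and the Epo receptor. Of these, 5 lay above all controls in HSC KO 1, 6 in EC KO 5 and 0 in EC KO 3, beside 13.6%, 17.9% and 22.3% of all genes. Epor, the receptor of erythropoietin, stood at 5.01, 5.38 and 1.85 CPM in these libraries, and Gata1, the leading erythroid GATA factor, at 20.8, 19.997 and 12.1 CPM inside the control range of 10.7 to 31.2 CPM (10 libraries). Lmo2, Ldb1, Nfe2 and Bcl11a, the most abundant, stood at 468, 224, 210.3 and 216 CPM in HSC KO 1. 0 of 12 were called in any comparison, with at most 1 at an unadjusted p under 0.05.

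Of 12 tested erythroid enzymes and other erythroid genes, Car1 and Car2 included, 8 lay above all controls in HSC KO 1, 9 in EC KO 5 and 4 in EC KO 3, beside 13.6%, 17.9% and 22.3% of all genes. In EC KO, where 7.96% of all genes were called, 1 of 12 rose and 1 fell: Mgst3, a microsomal glutathione transferase, rose by 0.55 in log2 units (edgeR adjusted p = 0.0362), while Cat, catalase, fell by 0.21 (edgeR adjusted p = 0.0440). Prdx2, a peroxiredoxin abundant in red cells, differed by 0.21 (edgeR adjusted p = 0.125) and the aquaporin gene Aqp9 by -0.09.

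**Figure D4:**
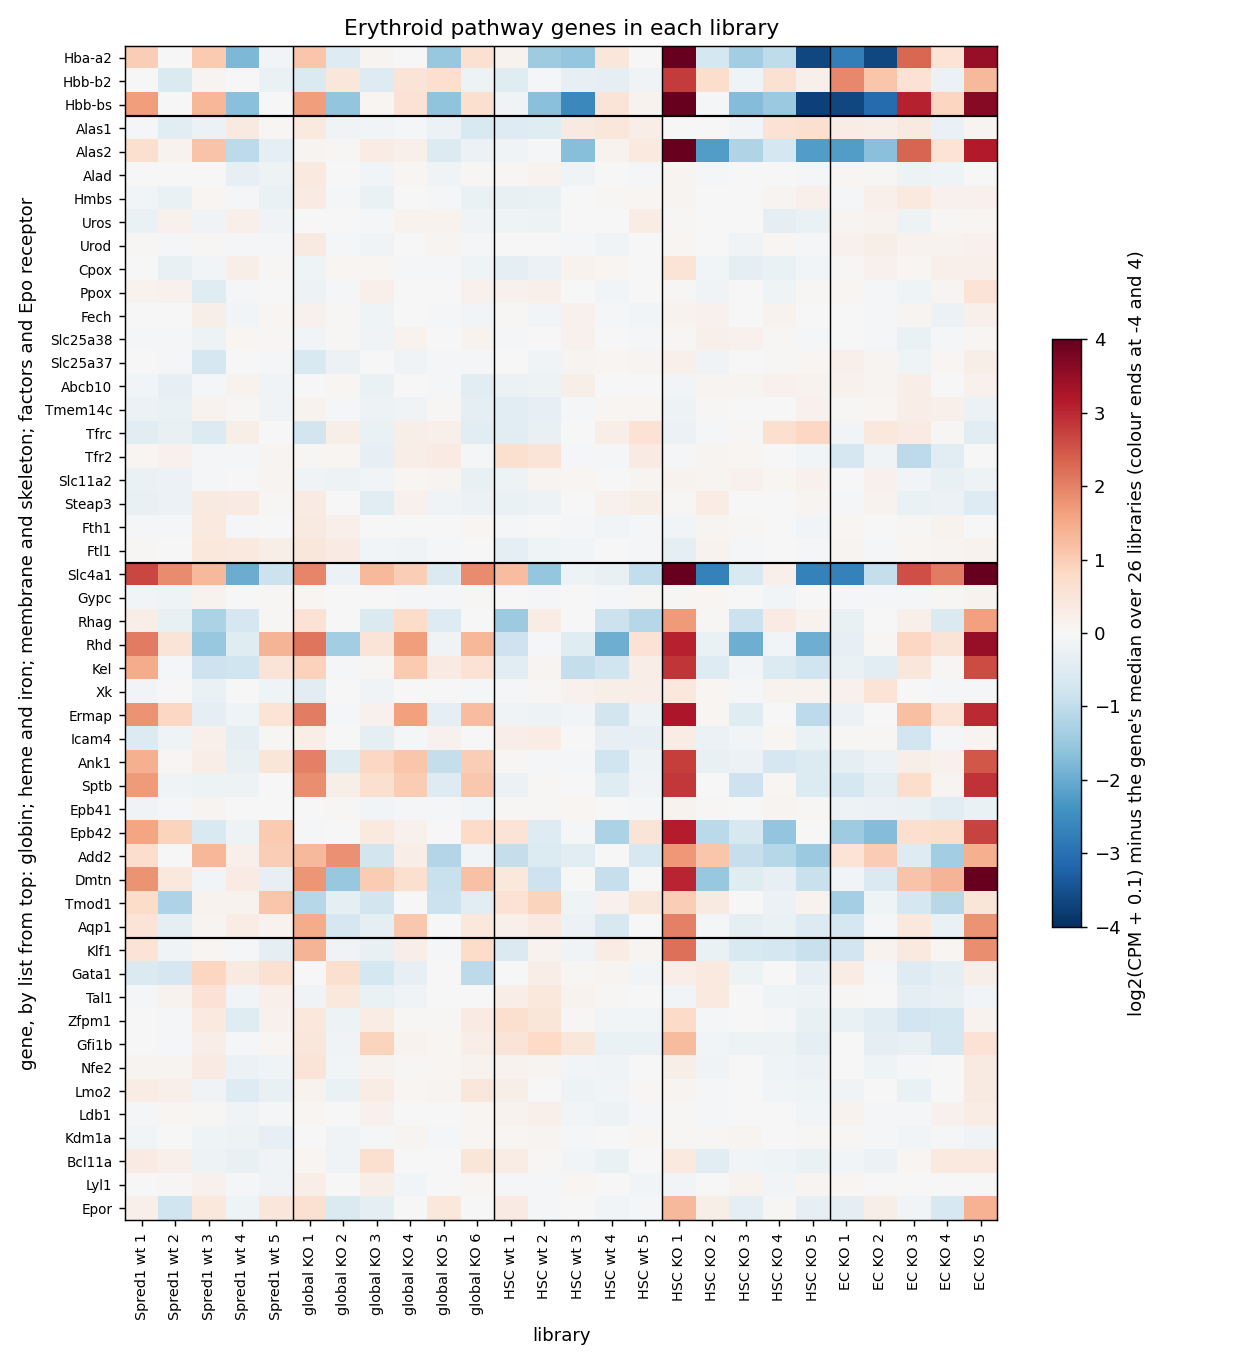
Erythroid pathway genes, without those not reported here, in each library, as log2(CPM + 0.1) minus the gene's median over the 26 libraries, with rows ordered by list and columns by group (colours end at -4 and 4). HSC KO 1 and EC KO 5 are high for globin, Alas2 and most membrane genes, EC KO 3 for globin and Alas2, while the heme genes other than Alas2 lie closer to 0.

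Some cell type markers stood outside the control range in the globin-rich libraries, and some did so in other libraries too. Kit, 1 of the genes behind the sort, stood at 677 CPM in HSC KO 1, 344 in EC KO 3 and 622 in EC KO 5. These values lay below the 760.1 to 1236 CPM of the 10 control libraries. Kit was also below that range in EC KO 1, 2 and 4, at 607, 587 and 419 CPM. The same held for global KO 3 and 5, at 701 and 727 CPM, and for HSC KO 5, at 720 CPM. In EC KO against Spred1 wt Kit fell by 0.85 in log2 units (edgeR adjusted p = 0.00447). In HSC KO 1 the summed level of 8 plasma and B cell markers was 905 CPM, the highest of all libraries, while the other HSC KO libraries lay between 42.5 and 149 CPM and HSC wt between 74.9 and 146 CPM. Jchain, which codes for the joining chain of antibodies, made up 825 CPM of it. In HSC KO 1, 6 of the 6 tested markers lay above all controls, beside 13.6% of all genes. In EC KO 3 and EC KO 5 the plasma and B cell sum was 123 and 400 CPM, within the 189 to 504 CPM of Spred1 wt for EC KO 5. The summed level of 14 macrophage markers was 137 CPM in HSC KO 1, 328 in EC KO 3 and 353 in EC KO 5. It was 56.7 to 81.8 CPM in HSC wt and 79.5 to 328 CPM in Spred1 wt. In these 3 libraries 0, 6 and 9 of the 14 lay above all controls, beside 13.6%, 22.3% and 17.9% of all genes. Global KO 1 had the highest macrophage sum, 700 CPM, with 8.83 CPM of Hbb-bs.

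The summed level of 10 endothelial markers was 476 CPM in HSC KO 1, 275 in EC KO 3 and 429 in EC KO 5, against 295 to 408 CPM in HSC wt and 287 to 431 CPM in Spred1 wt. Mast cell markers were lower in sum. The sum over 10 genes was 1236 CPM in HSC KO 1, 1621 in EC KO 3 and 1987 in EC KO 5. It was 3746 to 6759 CPM in HSC wt and 2563 to 16502 CPM in Spred1 wt. Low sums also occurred in libraries with less globin. Global KO ran from 1313 through a median of 2590 to 13316 CPM, and EC KO 4 stood at 1972 CPM. In HSC KO 1, EC KO 3 and EC KO 5, 1, 1 and 2 of the 10 lay above all controls, beside 13.6%, 22.3% and 17.9% of all genes. Of 9 tested megakaryocyte markers, 5 lay above all controls in HSC KO 1, beside 13.6% of all genes. There 4 of the 9 were at their highest of the 26 libraries, beside 7.21% of all genes. The sum over 10 megakaryocyte markers was 395 CPM in HSC KO 1, 217 in EC KO 3 and 320 in EC KO 5. It was 298 to 488 CPM in HSC wt and 276 to 439 CPM in Spred1 wt. Itga2b and Gp1ba stood at 174 and 10.3 CPM in HSC KO 1. Both lay below every HSC wt library and inside the Spred1 wt range. Over the 26 libraries Hbb-bs correlated with the macrophage sum at r = 0.57 (rho 0.64), the plasma and B cell sum at 0.63 (0.61), the endothelial sum at 0.56 (0.57) and the mast cell sum at -0.46 (-0.52), with permutation p-values of 0.00233, 0.00057, 0.0026 and 0.01727 for r and adjusted p-values of 0.004044, 0.00133, 0.004044 and 0.02418. For rho the permutation p-values were 0.0005, 0.00152, 0.00239 and 0.00773, and the adjusted p-values 0.0014, 0.00304, 0.004182 and 0.01082. Without the farthest 2 libraries r was 0.63, 0.49, 0.47 and -0.42, and without HSC KO 1, EC KO 3 and EC KO 5 it was 0.52, 0.50, 0.70 and -0.18. Among the 19 libraries under 500 CPM of Xist r was 0.72, 0.42, 0.31 and -0.48, and among the 7 above it was 0.47, 0.87, 0.93 and -0.68. The sums of LSK, megakaryocyte and mature neutrophil markers correlated at 0.25, -0.10 and 0.16, with permutation p-values of 0.222, 0.616 and 0.431 and adjusted p-values of 0.282, 0.616 and 0.464. For rho these 3 gave 0.33, -0.14 and 0.10, with adjusted p-values of 0.130, 0.580 and 0.675. All markers matched in the table had counts in HSC KO 1, EC KO 3 and EC KO 5, and their part in the erythroid values was not tested.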

How the data were processed

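RNA-seq of sorted LSK cells gave 26 libraries in 5 groups. The authors deposited raw read counts per gene, with 0 columns left unmapped to a sample; the submitters' processing notes list bcl2fastq 2.18.0.12, STAR 2.6.0, HTSeq 0.6.0, edgeR 3.28.1 and build mm10. The gene annotation and the strand setting are not given in the sources used here. The members and gene lists were chosen with earlier results of these data known.

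Rows kept by filterByExpr (minimum count 10) were TMM-scaled and fitted over all 5 groups with edgeR 4.0.16 in R 4.3.3 (quasi-likelihood, robust, 21 residual degrees of freedom, prior count 2, common biological coefficient of variation 0.205), with Benjamini-Hochberg adjustment at 0.05 over 13379 genes. The tests were checked on simulated data. Alternatives used DESeq2 1.42.0, limma 3.58.1, other scalings and filters, and each library left out. Named genes were the members, the genes of each pathway list past the threshold and the 4 most abundant of each list. Correlations used edgeR's log2 CPM with a prior count of 2, scaled to library size, for genes. For marker lists they used log2(sum + 1), with 100000 permutations in SciPy 1.17.1. A library of 14816071 to 26714325 counts puts 3 counts at 0.113 to 0.197 CPM. Some genes of the membrane list enter its counts and are not reported here by name.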

Additional observations from a re-analysis of the deposited data

Results flagged for a closer look

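In 10 of 40 sets of 1 gene in 1 group, the highest library stood apart from the rest by Dixon's 95% criterion. For normally distributed values chance alone flags about 1 in 20 such sets. These values are CPM of mostly scarce rows, for which that rate was not tested, and the sets share libraries. HSC KO 1 stood apart within HSC KO for 7 of the 8 rows examined: Hbb-bs at 194 CPM, Hba-a2 at 54.8, the Hbb-b2 row at 41.0, Alas2 at 17.7, Slc4a1 at 23.4, Klf1 at 9.33 and Car1 at 60.4 CPM. EC KO 5 stood apart within EC KO for Slc4a1 at 24.03 CPM and Klf1 at 7.23 CPM. HSC wt 1 stood apart within HSC wt for Slc4a1 at 1.42 CPM.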

How the results depend on the processing

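Of 711 values under other settings, 653 kept their direction and side of the threshold. The number of members past the threshold was 0 of 7 under all settings but 1: among libraries under 500 CPM of Xist, EC KO had 2. The Xist settings and the removal of 3 libraries together were chosen after seeing the data.

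limma voom with sample weights reversed, in HSC KO, Hba-a2 (-1.21), Hbb-bs (-0.68), Alas2 (-1.23), Slc4a1 (-1.01) and Klf1 (-0.54), in EC KO, Hba-a2 (-1.50), Hbb-bs (-1.31), Alas2 (-1.04) and Slc4a1 (-0.99), Klf1 between the controls (0.046), and the Hbb-bs difference of effects (0.10). Without HSC KO 1, EC KO 3 and EC KO 5, HSC KO gave -1.32 for Hba-a2, -0.98 for Hbb-bs, -2.11 for Alas2, -1.16 for Slc4a1 and -0.66 for Klf1. EC KO then gave -1.37 for Hba-a2 and Hbb-bs, -1.29 for Alas2, -0.85 for Slc4a1, -0.22 for Klf1 and -0.35 for Car1, and the Hbb-bs difference of effects was 0.68. Among libraries under 500 CPM of Xist, HSC KO gave -0.40 for Hba-a2, -1.95 for Alas2, -1.97 for Slc4a1 and -0.33 for Klf1, and Car2 between the controls was 0.12. With the Xist class as a term, Car2 was 0.076 in HSC KO and 0.016 between the controls.

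With 1 library left out in turn, HSC KO ranged from -1.31 to 3.88 for Hba-a2, -0.97 to 4.54 for Hbb-bs, -2.10 to 3.71 for Alas2, -1.14 to 3.95 for Slc4a1, -0.64 to 0.78 for Klf1 and -0.32 to 0.10 for Car2. EC KO ranged from -0.021 to 2.52 for Slc4a1 and -0.055 to 0.81 for Klf1. Global KO ranged from -0.47 to 0.13 for Hba-a2, -0.78 to 0.12 for Hbb-bs, -0.59 to 0.040 for Alas2 and -0.57 to 0.36 for Slc4a1. Between the controls Klf1 ranged from -0.13 to 0.12 and Car2 from -0.24 to 0.079, and the Hbb-bs difference of effects from -5.0003 to 0.69. The cause was not tested.

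Over all genes, DESeq2 called 35 in global KO, 5 in HSC KO, 32 between the controls and 7 for the difference of effects, against 10, 3, 4 and 2 with edgeR. limma voom called 1840 in EC KO against 1065, 15 in global KO, 16 between the controls and 5 for the difference of effects. With the compared groups only, edgeR called 4 in global KO, 2 in HSC KO, 333 in EC KO and 1 between the controls, and with the Xist class as a term 636 in EC KO.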

Other observations

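Among carbonic anhydrase genes other than Car1 and Car2, Car7, a cytosolic family member, fell in EC KO, from 2.19 ± 0.605 CPM in Spred1 wt to 0.702 ± 0.377 CPM (SD, n = 5 each), a log2 difference of -1.62 (edgeR adjusted p = 0.0158), with 5 of 5 libraries below all controls. It was the 1 gene called of 10 tested in the family in EC KO, where 7.96% of all genes were called, and the other comparisons called 0 of 10 by edgeR's quasi-likelihood test.

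The genes ranked most like the members were found by Spearman's rho over 26 libraries between 13315 genes and the mean standardized level of the 7 members. They were Txlnb (0.90), Marcks (0.88), Cd247 (0.88), Slc14a1 (0.87), Smap2, Epsti1, Gimap4 and Paqr5 (0.86 each), Cd36 and Slc9a9 (0.85 each). Slc14a1, the urea transporter of red cells, ran from 18.5 to 68.4 CPM, highest in HSC KO 1, and stood at 59.3 CPM in EC KO 5. Gimap4, an immune GTPase, ran from 0.847 to 17.6 CPM and was also highest in HSC KO 1. This ranking describes these libraries and carries no test.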
